A study of Mus musculus with 10 samples.

Results

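Zinc finger genes named Zfp followed by a number were taken from chromosomes 7, 8, 13 and 17 of the expression table of male mouse embryonic stem cells (mESCs), leaving out Zfp42, Zfp57 and Zfp36. Of 188 rows matched by name among the 25965 of the table, 160 were selected on their measured level, a value above 0 in 5 or more of the 10 libraries, which is a level above 1 in reads scaled to exon length and library size (RPKM). These 160 genes, 71 on chromosome 7, 20 on chromosome 8, 29 on chromosome 13 and 40 on chromosome 17, are described here, and 145 of them were above 0 in every library. Values are log2 RPKM throughout, so that a difference of 1 is a doubling, and levels of different genes can be compared because they are set per length.

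Most genes with these names encode proteins with tandem C2H2 zinc fingers, and many also carry a KRAB domain. KRAB zinc finger proteins bind particular DNA sequences, often within retroelements, and recruit the corepressor TRIM28, which in turn brings the histone H3 lysine 9 methyltransferase SETDB1 and silences the bound element. The family has grown by local duplication, so its members lie in clusters of neighbouring, similar genes, and mESCs are among the cells in which this silencing has been studied most.

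Male C57/Bl6 mESCs of 2 independent lines were derived under Keniry2022 conditions, sampled at passage 0 (p0), then split and grown in 2i/LIF medium to passages 10 and 20 (p10, p20) under 1 of the culture methods compared. Under Keniry2022 conditions cells grew in suspension on uncoated plates and were passaged every 24 h, whereas under Mulas2019 conditions they grew on gelatin at lower density and were passaged every 48 h. Each of the 5 groups (p0, p10 and p20 Keniry2022, p10 and p20 Mulas2019) had 2 libraries, 1 for each line, so the 4 libraries of a method are those of 2 lines at 2 passages. At equal passage the methods differ in days of culture, and p20 Keniry2022 and p10 Mulas2019 both stand at 20 days. One line had lost its Y chromosome during derivation.

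Libraries held 24053996 to 30236823 reads, with 86.0% to 88.8% of them in the table's features, and the 160 genes together held 86545 to 119510 reads per library. The p0 libraries stood apart from each other. The SD of the difference between replicates over the 160 genes was 0.60 at p0 and 0.151 to 0.198 in the other groups, and 14 genes differed by at least 1 between the p0 libraries while 0 did so in any other group. Replicate 1 was the lower of the p0 pair for 13 of the 14, and the widest gap was in Zfp871 (-0.93 and 2.17). Reads of 4 Y-linked genes numbered 13 to 132 in replicate 1 and 4578 to 8140 in replicate 2 of every group but p20 Keniry2022, where replicate 1 had 6659 and replicate 2 had 48, so these replicate numbers run against the others. Naive pluripotency markers were abundant in all libraries (summed level of 8 markers 1298 to 1749 RPKM), whereas 0 of 7 primitive endoderm, 0 of 5 2-cell-like and 0 of 4 fibroblast markers passed the filter of the test, with summed levels of 1.70 to 2.61, 2.09 to 7.19 and 0.34 to 1.01 RPKM. In bulk libraries fewer cells with a transcript and less of it per cell cannot be told apart.

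The 160 genes were of modest abundance. Their median level over the 10 libraries was 1.89, against 3.16 for all features tested, and individual means ran from 0.00 to 6.68. Neighbouring matched rows with gaps of at most 1 Mb formed 16 clusters of 3 or more rows, which held 128 of the 160 genes (median level 1.82), and the other 32 genes (median 2.66) lay in none. The most abundant were Zfp428 on chromosome 7 (6.16 to 7.30 over the 10 libraries) and, on the same chromosome, Zfp568 (4.35 to 5.60), a KRAB zinc finger gene known to repress a placental transcript of Igf2. Zfp598, an E3 ligase that senses collided ribosomes and is no KRAB repressor, led chromosome 17 (4.65 to 5.04), Zfp961 led chromosome 8 (4.29 to 5.15), and Zfp459 led chromosome 13 by its mean (3.14 to 4.71). Because members are similar, reads can be shared: 36 genes had at least 5% of their transcript 75-base words in transcripts of another gene, and 56 shared exon sequence with an overlapping gene.

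Sequences before the transcription start were compared first, because the cluster at 65.3 to 67.8 Mb of chromosome 13, around Zfp459, held the largest difference between culture methods among the 160 genes. RefSeq promoters (GRCm38.p6, 250 bases before to 50 after the start) were found for 141 of the 160 genes. The 6-letter word found in most promoters of matched rows in this cluster was TGTAGT (16 of 18). With the letters shared by at least 16 of its 18 copies it read GGGANNTGTAGT, which resembles part of an element described for ZNF143. That run, on either strand, lay in 16 of the 18 promoters of matched rows in this cluster, in 24 of 146 promoters of matched rows elsewhere (16.4%) and in 563 of 27025 promoters of the genome (2.08%). The run was read from these same promoters, so its share in the cluster is set in part by that choice, and a match is a description of sequence, not a site of binding. The 120 bases before the start of 6 cluster members follow, 5′ to 3′ on the strand of the gene, with that run, the letters GACGTCA (TGACGTCA where the full cAMP response element is present) and the letters CACGTG in capitals.

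Zfp459 (chr13:67421419-67421538, minus strand): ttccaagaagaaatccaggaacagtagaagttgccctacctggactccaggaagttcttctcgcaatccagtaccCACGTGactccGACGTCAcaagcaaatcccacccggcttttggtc
Zfp953 (chr13:67360573-67360692, minus strand): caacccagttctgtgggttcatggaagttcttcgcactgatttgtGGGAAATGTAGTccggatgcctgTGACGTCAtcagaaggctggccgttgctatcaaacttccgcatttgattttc
Zfp874a (chr13:67451625-67451744, minus strand): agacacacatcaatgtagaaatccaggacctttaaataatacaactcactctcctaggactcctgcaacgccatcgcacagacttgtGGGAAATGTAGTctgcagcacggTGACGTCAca
Zfp595 (chr13:67332561-67332680, minus strand): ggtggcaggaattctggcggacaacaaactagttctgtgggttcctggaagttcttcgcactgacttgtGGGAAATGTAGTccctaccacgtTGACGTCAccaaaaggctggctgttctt
Zfp429 (chr13:67399768-67399887, minus strand): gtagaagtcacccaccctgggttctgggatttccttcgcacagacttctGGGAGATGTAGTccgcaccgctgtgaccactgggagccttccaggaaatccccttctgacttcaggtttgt
Zfp738 (chr13:67683513-67683632, minus strand): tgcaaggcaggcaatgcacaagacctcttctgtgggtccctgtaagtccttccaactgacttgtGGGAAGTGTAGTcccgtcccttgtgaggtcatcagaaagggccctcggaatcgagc

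The promoters of Zfp953, Zfp874a and Zfp595 held both runs, with 11 bases between the first run and TGACGTCA, and the same spacing was found in Zfp874b, Zfp457 and Zfp72. In Zfp712, which held only the core, 12 bases lay between the first run and GACGTCA. The core is equally far from the run in all of these, because TGACGTCA has a T before it. The GACGTCA letters, which are contained in the full element, lay in 7 of 18 promoters of the cluster, in 9.22% of the promoters of the 160 genes that could be read and in 3.60% of all promoters. Of the 15 genes of the cluster above the detection threshold with a promoter entry, 13 held the GGGANNTGTAGT letters, and those without them in this window were Zfp459 and the pseudogene Zfp640. Among the 160 genes the letters were found in 8 of the 43 promoters of genes higher under Keniry2022 conditions in the pooled comparison described next, in 2 of 19 of genes lower and in 23 of 79 of the rest. Zfp143, the mouse gene of ZNF143 and itself 1 of the 160, stood at 3.60 to 3.90 in the 10 libraries and differed by 0.02 ± 0.05 (SE) between methods (adjusted p = 0.78, limma), a gene named here after its values were seen.

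The first comparison asked which of the genes differ between culture methods when p10 and p20 are pooled, 4 libraries against 4. Under Keniry2022 conditions 45 of the 160 genes were higher and 23 were lower than under Mulas2019 conditions (limma with an intensity trend, Benjamini-Hochberg adjusted over all features, 0.05), where 25.9% of the 11654 features tested were higher, 25.5% lower and 51.5% either. The share of the 160 that was higher, 28.1%, was thus near the background, and the share that was lower was below it, with a median difference of 0.07 against 0.00 for all features. The split between directions depended on how values were scaled: higher calls were 66.2% of calls here, 77.5% after quantile normalisation (62 of 80), 54.7% with voom on recovered reads (35 of 64) and 45.2% after correction for exon length and GC content (28 of 62), which turned it. The groups did not overlap for 40 genes higher and 23 lower, against 23.1% and 23.4% of all features. Of the 145 genes above 0 in every library, 42 were higher and 18 lower. Zfp768, above 0 only in p0 replicate 2 and the 4 Mulas2019 libraries, and Zfp423 passed the rule mainly through the groups in which they were higher, so their differences were partly set by it.

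By chromosome, 18 genes were higher and 9 lower on chromosome 7, 8 and 5 on chromosome 8, 8 and 4 on chromosome 13, and 11 and 5 on chromosome 17. Correction for length and GC content turned that balance on chromosomes 8 (4 and 7), 13 (3 and 8) and 17 (1 and 7), but not on chromosome 7 (20 and 12). Genes in clusters gave 37 higher and 13 lower of 128 (25 and 23 after the correction), whereas those in no cluster gave 8 higher and 10 lower of 32. Over all features 25.9% were higher and 25.5% lower before the correction, so the share higher was near the background in both sets. Zfp genes of other chromosomes gave 22 higher and 32 lower of 132 tested.

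**Figure D1:**
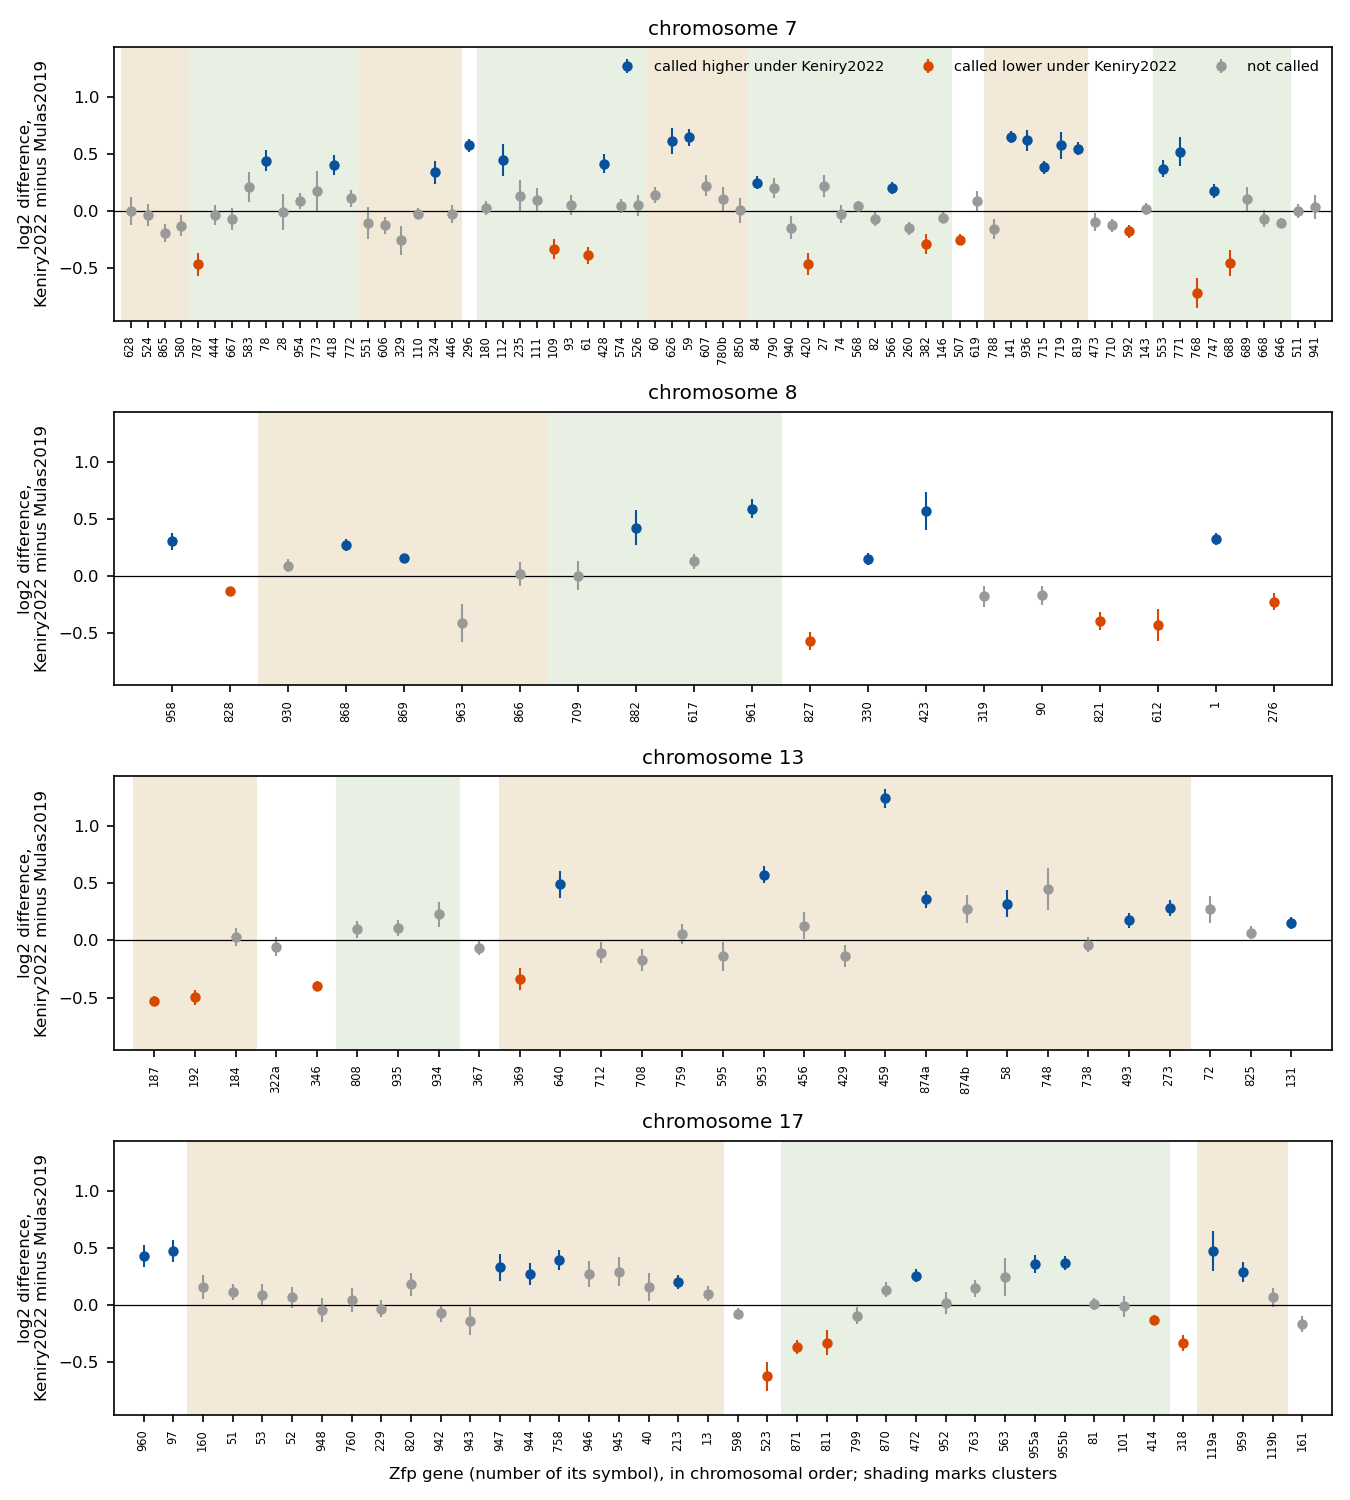
Log2 difference (Keniry2022 minus Mulas2019, p10 and p20 pooled, 4 libraries each) with its standard error for the 160 genes, in chromosomal order, with shading for clusters and colour for the call. Zfp459 on chromosome 13 stands highest at 1.25, and the run of 5 higher genes between 41.6 and 43.6 Mb of chromosome 7 kept its direction under every scaling, whereas the balance on chromosomes 8, 13 and 17 turned under correction for length and GC content.

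In the chromosome 13 cluster, 7 of 17 genes were higher and 1 was lower under Keniry2022 conditions, with a median difference of 0.18. Over all features 25.9% were higher and 25.5% lower. The count became 3 higher and 3 lower after correction for length and GC content, where 2789 of 11654 features were higher. It became 10 higher and 0 lower after quantile normalisation, where 2687 of 11654 features were higher. The other rows within the same span, mostly unnamed or differently named genes, gave 8 higher and 0 lower of 13 tested.

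Zfp459 (67405712 to 67421418, mm10, minus strand) held 710 to 2521 reads per library and 1.23% of its 75-base words were found elsewhere. Its level was 4.53 and 4.45 at p0, 4.63 and 4.71 at p10 Keniry2022, 4.43 and 4.50 at p20 Keniry2022, 3.14 and 3.26 at p10 Mulas2019, and 3.41 and 3.49 at p20 Mulas2019. The 4 Mulas2019 libraries lay below the other 6, with no overlap. The difference between methods was 1.25 ± 0.08 (SE), or 2.37-fold (adjusted p = 2.45e-05, limma), and the gene was called in each of 10 other settings and without each library in turn. Zfp459 overlaps the annotated gene Gm48900, and reads of the pair could not be told apart if counting ignored strand.

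Zfp953, further along on the same strand, showed the same order at a lower level. It stood at 2.18 and 2.51 at p0, at 2.42, 2.51, 2.36 and 2.38 under Keniry2022 conditions, and at 1.68, 1.86, 1.86 and 1.98 under Mulas2019 conditions. The methods did not overlap and differed by 0.58 ± 0.07 (adjusted p = 0.0002, limma).

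Zfp874a, the next gene beyond Zfp459, was likewise lower in all 4 Mulas2019 libraries. Levels were 2.63 and 2.70 at p0, 2.61, 2.54, 2.54 and 2.60 under Keniry2022 conditions, and 2.09, 2.06, 2.31 and 2.39 under Mulas2019 conditions, a difference of 0.36 ± 0.08 (adjusted p = 0.0034, limma). Zfp273, at the far end of the cluster, was higher under Keniry2022 conditions as well (2.06, 2.26, 2.18 and 2.04 against 1.81, 1.86, 1.95 and 1.79). Its p0 libraries were at 2.81 and 2.22, and the methods did not overlap and differed by 0.28 ± 0.07 (adjusted p = 0.0069, limma).

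The other 3 genes of the cluster called higher rested on less. Zfp640, annotated as a pseudogene and with 35.7% of its words shared, differed by 0.49 ± 0.12 (adjusted p = 0.0071, limma) on 24 to 69 reads per library. Zfp58, with 44.8% of its words shared, differed by 0.32 ± 0.12 (adjusted p = 0.046, limma) and its groups overlapped, since p20 Mulas2019 replicate 2 at 2.21 was above p10 Keniry2022 replicate 2 at 2.17. Zfp493 differed by 0.18 ± 0.06 (adjusted p = 0.041, limma). Zfp58 and Zfp493 were called in only 2 of the 8 fits that left out 1 library each, and their differences fell to 0.20 and 0.13 without p10 Mulas2019 replicate 2. Zfp58 was not called with the replicate block.

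Zfp369 ran the other way in the same cluster. It stood at 0.78, 0.88, 0.54 and 0.79 under Keniry2022 conditions and at 1.09, 0.99, 1.16 and 1.10 under Mulas2019 conditions, lower by 0.34 ± 0.09 under Keniry2022 conditions (adjusted p = 0.013, limma). Its p0 libraries, at -0.81 and 0.58, were 1.39 apart.

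The 9 genes of the cluster that did not pass the test differed by -0.17 to 0.45. Zfp748 differed by 0.45 ± 0.19 and Zfp874b by 0.27 ± 0.12 (adjusted p = 0.065 and 0.084, limma). The promoters printed for Zfp595, Zfp429 and Zfp738 belonged to genes with differences of -0.14 ± 0.13, -0.14 ± 0.10 and -0.04 ± 0.07 (adjusted p = 0.39, 0.26 and 0.68, limma), so that these 3 did not pass the test. Zfp708, whose words were 94.3% shared with other transcripts, differed by -0.17 ± 0.10 and cannot be separated from its copies.

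**Figure D2:**
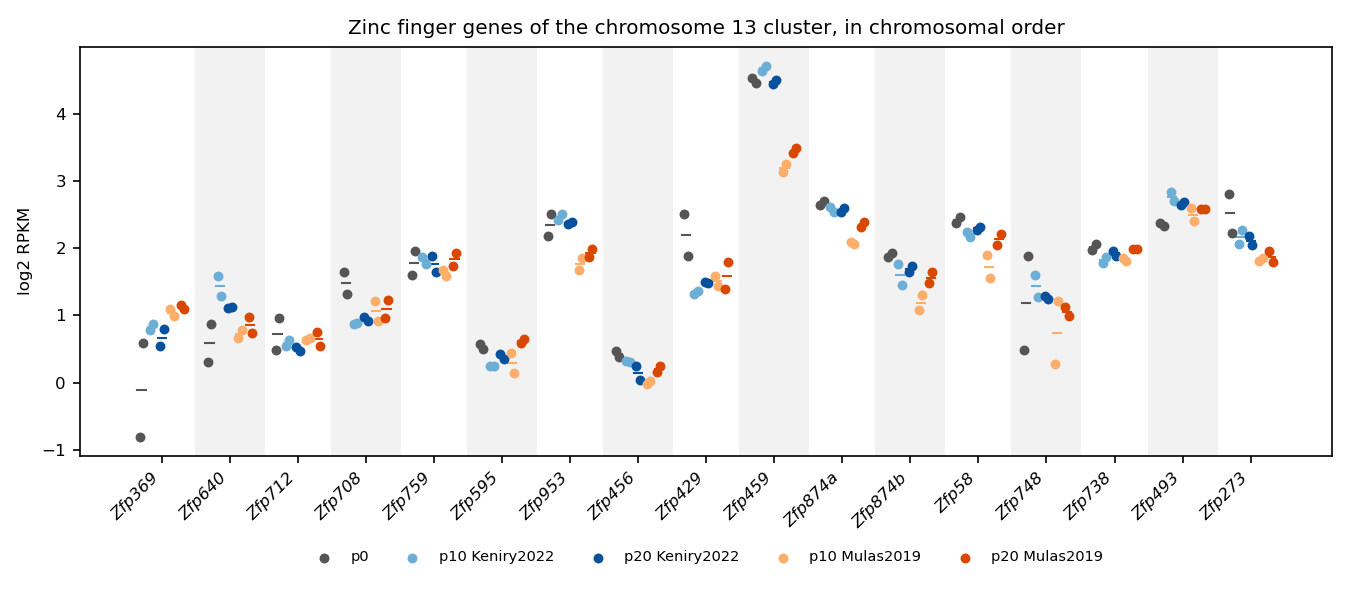
Log2 RPKM of the 17 genes of the chromosome 13 cluster in each library (points) with the mean of each group (dashes), in chromosomal order. Zfp459 is the most abundant, with its 4 Mulas2019 libraries between 3.14 and 3.49 and the other 6 between 4.43 and 4.71; Zfp369 and Zfp748 show the wide p0 pairs.

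The cluster at 41.6 to 43.6 Mb of chromosome 7, described gene by gene after its values were seen, had the highest share of called genes. Of its 6 genes 5 were higher and 0 lower, against 25.9% and 25.5% of all features, with a median difference of 0.56. The count of 5 higher was found under each scaling and fit that kept all libraries and tested all 6 genes, and correction for length and GC content added Zfp788 as lower. Other rows in its span gave 5 higher and 1 lower of 10 tested.

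Zfp141 was the most deeply counted of them, with 2225 to 4663 reads. It stood at 4.71 and 4.97 at p0, at 5.08, 5.11, 4.88 and 4.94 under Keniry2022 conditions, and at 4.30, 4.31, 4.41 and 4.39 under Mulas2019 conditions. The Mulas2019 libraries were the 4 lowest, and the methods differed by 0.65 ± 0.06 (adjusted p = 4.54e-05, limma).

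Zfp819, whose protein is known to bind TRIM28, had even replicates. Its level was 3.42 and 3.30 at p0, 3.30, 3.26, 3.29 and 3.41 under Keniry2022 conditions, and 2.68, 2.70, 2.78 and 2.91 under Mulas2019 conditions. The p0 and Keniry2022 libraries shared a range that lay above that of Mulas2019, and the difference between methods was 0.55 ± 0.06 (adjusted p = 0.0001, limma).

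Its neighbour Zfp719 stood at 2.21 and 2.20 at p0, at 2.24, 2.26, 2.10 and 1.95 under Keniry2022 conditions, and at 1.42, 1.34, 1.63 and 1.85 under Mulas2019 conditions. The groups did not overlap, although p20 Keniry2022 replicate 2 and p20 Mulas2019 replicate 2 came close, and the difference was 0.58 ± 0.12 (adjusted p = 0.0025, limma). Zfp936 and Zfp715 differed by 0.62 ± 0.09 and 0.38 ± 0.06 (adjusted p = 0.0004 and 0.0005, limma), also without overlap. Zfp788, at the near end of the span, was the only 1 of the 6 with a negative difference (-0.16 ± 0.09, adjusted p = 0.15, limma).

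Elsewhere on chromosome 7, the 6 genes of the cluster at 27.7 to 28.0 Mb had positive differences (4 of 6 after correction for length and GC content, 5 of 6 with voom). Of these 6 genes 2 were called, both higher, against 25.9% of all features. Zfp59 stood at 3.34, 3.28, 3.28 and 3.37 under Keniry2022 conditions and at 2.47, 2.63, 2.74 and 2.85 under Mulas2019 conditions, a difference of 0.65 ± 0.08 (adjusted p = 0.0001, limma), with 39.1% of its words shared. Zfp626 differed by 0.61 ± 0.11 (adjusted p = 0.0016, limma) on 19 to 133 reads, and its p0 libraries were at -0.05 and 1.89. Zfp296, which is expressed in mESCs and lay in no cluster, stood at 5.25, 5.21, 5.02 and 5.14 against 4.54, 4.68, 4.58 and 4.52, a difference of 0.58 ± 0.06 without overlap (adjusted p = 6.33e-05, limma).

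On chromosome 8 the highest difference was in Zfp961, at 71951038 to 71993408. It stood at 4.86 and 4.87 at p0, at 5.08, 5.15, 4.85 and 5.02 under Keniry2022 conditions, and at 4.29, 4.30, 4.56 and 4.59 under Mulas2019 conditions. The methods did not overlap and differed by 0.59 ± 0.09 (adjusted p = 0.0004, limma). Its neighbour Zfp882 was also called higher, by 0.42 ± 0.16 (adjusted p = 0.043, limma), but in only 3 of the 8 fits that left out 1 library each and not with the replicate block. Zfp1 and Zfp958, in no cluster, were higher by 0.32 ± 0.06 and 0.30 ± 0.07 (adjusted p = 0.0010 and 0.0058, limma), but Zfp958 was at 0.00 after correction for length and GC content.

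On chromosome 17, in the cluster of 18 genes at 21.0 to 23.6 Mb, 4 were higher and 0 lower, and 14 differences were positive. The share higher was below the 25.9% of all features. Correction for length and GC content left 1 higher and 1 lower. It also left 9 of 18 differences positive, with a median of 0.00 in place of 0.14. The replicate block left 2 higher (3 with the p20 Keniry2022 numbers crossed) and voom 1 higher. Zfp758 stood at 2.55, 2.76, 2.68 and 2.81 under Keniry2022 conditions and at 2.18, 2.14, 2.47 and 2.42 under Mulas2019 conditions (difference 0.40 ± 0.09, adjusted p = 0.0039, limma). Zfp97 and Zfp960, neighbours outside this cluster, were higher by 0.47 ± 0.10 and 0.43 ± 0.09 (adjusted p = 0.0026 and 0.0034, limma), with 74.0% and 75.3% of their words shared, so reads of this pair may have been split between near copies. Zfp229, next to Zfp598 the most abundant gene of the chromosome, differed by -0.03 ± 0.07 (adjusted p = 0.75, limma).

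The counts of the remaining clusters stand beside 25.9% of all features higher and 25.5% lower. The cluster of Zfp119a at 55.9 Mb of chromosome 17 had 2 of 3 genes higher, with Zfp119a at 0.47 ± 0.17 (adjusted p = 0.043, limma). It had 0 after correction for length and GC content or with voom. That at 69.2 to 69.8 Mb of chromosome 8 had 2 of 5 higher and 0 lower, but 1 higher and 2 lower after that correction, and the one starting at 12.4 Mb of chromosome 7 had 1 of 6 higher. At 32.8 to 33.6 Mb of chromosome 17, 3 of 13 genes were higher and 3 lower, turning to 0 and 3 after correction for length and GC content. Zfp955b differed there by 0.37 ± 0.06 (adjusted p = 0.0010, limma), whereas Zfp871 differed by -0.37 ± 0.06 and Zfp811 by -0.33 ± 0.11 (adjusted p = 0.0012 and 0.028, limma). On chromosome 7, the cluster at 24.1 to 25.2 Mb held 2 higher and 2 lower of 10, with Zfp428 at 0.42 ± 0.09 and Zfp61 at -0.39 ± 0.08 (adjusted p = 0.0026 and 0.0021, limma), and that at 29.8 to 30.2 Mb held 2 and 2 of 12, with Zfp420 at -0.46 ± 0.10 (adjusted p = 0.0032, limma) and the abundant Zfp568 at 0.05 ± 0.04 (adjusted p = 0.35, limma). The clusters at 6.1 to 7.2 Mb and 127.2 to 127.9 Mb held 2 higher and 1 lower of 10 and 3 higher and 2 lower of 8, the lower genes being Zfp787 in the former and Zfp768 and Zfp688 in the latter. At 4.9 to 5.1 Mb of chromosome 7 and 62.1 to 62.5 Mb of chromosome 13, 0 of 4 and 0 of 3 genes were called (limma; 1 and 0 at an unadjusted p under 0.05, and 1 and 0 called with voom).

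**Figure D3:**
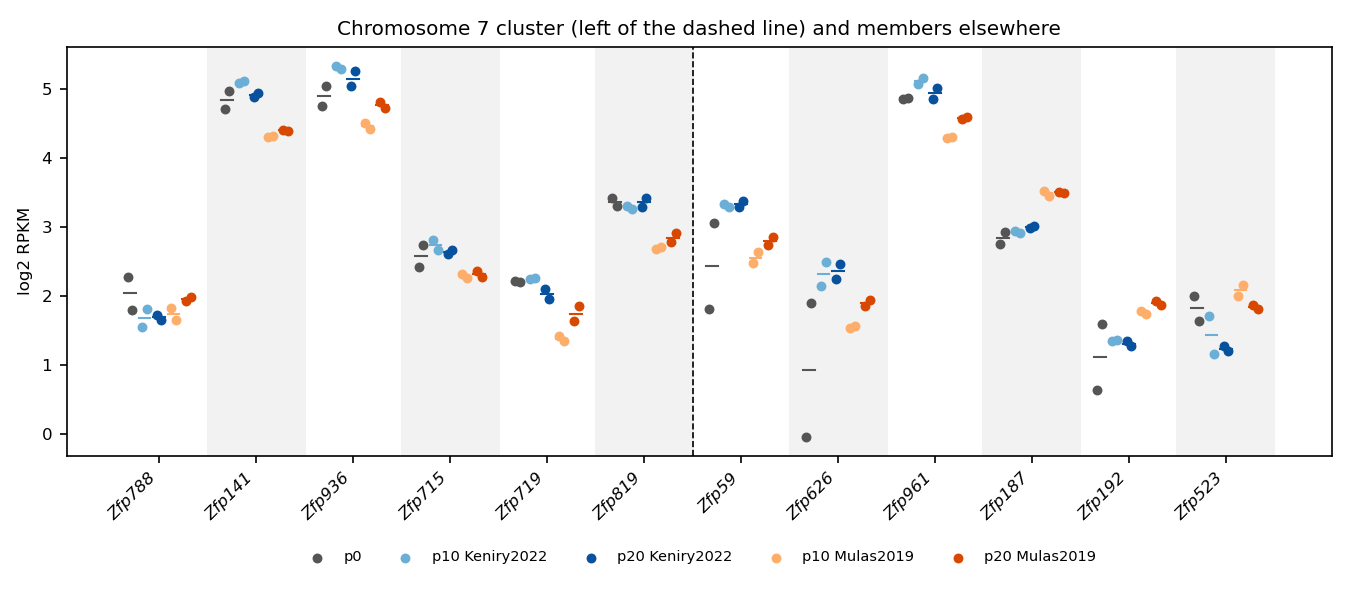
Log2 RPKM in each library (points) with group means (dashes) for the 6 genes of the chromosome 7 cluster at 41.6 Mb and for 6 genes elsewhere. Zfp141, Zfp936, Zfp715, Zfp719, Zfp819, Zfp59, Zfp626 and Zfp961 were higher under Keniry2022 conditions, whereas Zfp187, Zfp192 and Zfp523 were lower and Zfp788 was not called.

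Among the 23 genes lower under Keniry2022 conditions, the clearest was Zfp187 (also named Zscan26), which carries a SCAN domain beside its fingers. It stood at 2.75 and 2.92 at p0, at 2.94, 2.91, 2.98 and 3.01 under Keniry2022 conditions, and at 3.52, 3.45, 3.51 and 3.49 under Mulas2019 conditions. The Mulas2019 libraries were the 4 highest, and the difference was -0.53 ± 0.04 (adjusted p = 3.56e-05, limma). Its neighbour Zfp192 (Zkscan8), another SCAN gene, was lower by 0.50 ± 0.07 (adjusted p = 0.0003, limma), whereas the last gene of the cluster at 21.4 to 22.0 Mb of chromosome 13, Zfp184, was not called.

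Zfp523, the mouse counterpart of ZNF76, a relative of ZNF143, was the lowest in difference on chromosome 17. It stood at 1.70, 1.16, 1.27 and 1.19 under Keniry2022 conditions and at 2.00, 2.16, 1.87 and 1.80 under Mulas2019 conditions, a difference of -0.62 ± 0.13 (adjusted p = 0.0025, limma). Its p0 libraries were at 2.00, within the range of Mulas2019, and at 1.63, within that of Keniry2022. Zfp827 stood at 0.89, 0.89, 1.10 and 1.09 against 1.61, 1.48, 1.60 and 1.58 (difference -0.57 ± 0.08, adjusted p = 0.0004, limma), and its p0 libraries were lower than both at 0.60 and 0.68.

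Several lower genes have roles other than KRAB repression. Zfp346 encodes a protein that binds double-stranded RNA and stood at 2.60, 2.60, 2.63 and 2.55 under Keniry2022 conditions and at 3.05, 2.99, 2.94 and 2.99 under Mulas2019 conditions, a difference of -0.40 ± 0.05 (adjusted p = 0.0001, limma). Zfp318, known for its part in IgD expression of B cells, differed by -0.33 ± 0.07 (adjusted p = 0.0026, limma). Zfp828, or Champ1, which acts in chromosome alignment, differed by only -0.13 ± 0.04 (adjusted p = 0.016, limma). Zfp768, near the detection threshold at 46 to 83 reads, had the lowest value of all, -0.72 ± 0.13 (adjusted p = 0.0014, limma). Its Keniry2022 libraries were all below that threshold, and it was kept mainly by its Mulas2019 libraries. The size and rank of its difference were thus partly set by the detection rule.

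The next comparisons took each passage alone, 2 libraries against 2, in a model of all 10 libraries. At p10, 13 of the 160 genes were higher and 2 lower under Keniry2022 conditions, 15 in all against 8.53% of features (3.76% higher, 4.77% lower), and the median difference was 0.14 against 0.01 for all features. At p20, 3 were higher and 1 lower against 2.15% of features (0.614% higher, 1.54% lower), with a median of -0.01, whose sign changed with quantile normalisation (0.10) and median centring (0.01). Zfp459 differed by 1.47 ± 0.09 at p10 and 1.02 ± 0.09 at p20 (adjusted p = 0.0019 and 0.0084, limma). Zfp141 differed by 0.79 and 0.51 (both ± 0.10), Zfp819 by 0.59 and 0.51 (± 0.09), and Zfp187 by -0.56 and -0.50 (± 0.09). These 4 were the genes called at both passages.

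Called at p10 and not at p20 were Zfp961 (0.82 and 0.36), Zfp719 (0.87 and 0.28), Zfp936 (0.85 and 0.39), Zfp953 (0.70 and 0.45), Zfp874a (0.50 and 0.22) and Zfp960 (0.69 and 0.17), as well as Zfp827, Zfp553, Zfp758, Zfp78 and Zfp160. The difference between the passages was tested itself, and 0 genes passed (limma; 6 at an unadjusted p under 0.05, and 0 and 10 with voom). The p20 difference exceeded the p10 difference in 40 of the 160 genes and in 5443 of 11561 features. That share was 25 of 128 for genes in clusters and 15 of 32 for the others. The spread of this model came in part from the p0 libraries. When either of these was left out, more genes were called at p10 and at p20, as over all features. The median differences then stayed at 0.14 or 0.15 at p10 and at -0.01 at p20. Few or none of the 160 genes were called at p10 without 1 of the p10 libraries, or at p20 without 1 of the p10 or p20 libraries. A block for replicate number, taken to mark the line, left 1 call at p20, as did the block with the p20 Keniry2022 numbers crossed.

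**Figure D4:**
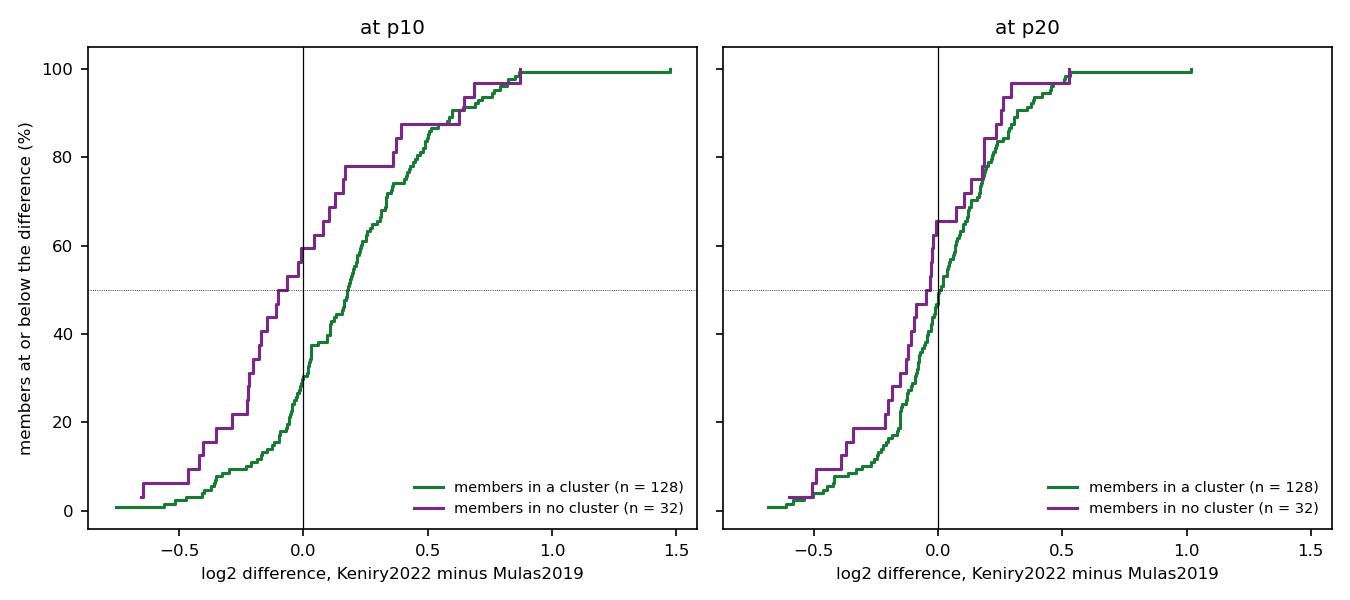
Cumulative share of genes at or below each log2 difference (Keniry2022 minus Mulas2019) at p10 and at p20, for the 128 genes in clusters and the 32 in none. At p10 the curve of clustered genes crosses the dotted line at 0.18 and that of the others at -0.09, while at p20 the medians are 0.01 and -0.04; the sign of the p20 median of the 160 genes changed with the scaling.

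Comparison with p0 asked which genes had left their starting level. Under Keniry2022 conditions 0 of the 160 genes were called at p10 (47 at an unadjusted p under 0.05, and 0 and 49 with voom) and 0 at p20 (45, and 0 and 48 with voom), against 0.199% of features in each case (0.0432% higher and 0.156% lower at p10, 0.0519% higher and 0.147% lower at p20, limma). These counts rested on the p0 pair and rose when either p0 library was left out, as did those of all features. Without p0 replicate 1 the 160 genes had medians of -0.01 (p10) and 0.00 (p20), against 0.00 and 0.01 for all features. Without p0 replicate 2 the medians were 0.12 and 0.09 over the 159 genes tested, against -0.02 and -0.02. Correction for length and GC content called 1 and 3 of the 160 genes, against 76 and 114 of 11561 features.

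Under Mulas2019 conditions 13 genes were higher and 30 lower than p0 at p10, against 33.0% of features called (15.7% higher, 17.3% lower), and 16 were higher and 18 lower at p20, against 29.3% (14.7% and 14.6%). These comparisons share their Mulas2019 libraries with those of the methods and are given for their own values. At p10 the excess of lower genes was lost after correction for length and GC content, with 18 higher of 37 called. The median difference of the 160 genes at p10 was -0.08 before that correction and 0.07 after it. With correction for length and GC content the p20 calls were 26 higher of 36. Without p0 replicate 2 the genes tested had a median difference of -0.04 at p10 and 0.06 at p20. In the chromosome 13 cluster 4 genes were lower than p0 and 1 was higher at p20. Correction for length and GC content turned this count to 2 lower and 3 higher, no filter left 1 and 0, and leaving out any 1 library other than those of p0 left 0 or 1 lower and 0 higher. In the chromosome 7 cluster at 41.6 Mb 3 were lower at p20 and 0 higher, with 0 lower when either p20 Mulas2019 library was left out.

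Zfp459 at p20 Mulas2019 was 1.04 ± 0.09 below p0 (adjusted p = 0.0040, limma), and the fall was 1.0 without p0 replicate 1 and 1.08 without p0 replicate 2. Zfp819, Zfp719 and Zfp141 fell by 0.51, 0.46 and 0.44 (adjusted p = 0.015, 0.027 and 0.022, limma). Zfp827 rose by 0.95 ± 0.11 (adjusted p = 0.0076, limma), or by 0.91 and 0.99 without either p0 library, and Zfp187 rose by 0.66 ± 0.09 (adjusted p = 0.0097, limma). Other changes were set by the p0 pair to a greater degree. Zfp109 rose by 1.32 ± 0.40 (adjusted p = 0.044, limma), but by 0.59 without p0 replicate 1 and 2.05 without p0 replicate 2, and Zfp369 rose by 1.24, or by 0.55 and 1.94. Zfp273 fell by 0.64, or by 0.35 and 0.94, and Zfp960 fell by 0.95, or by 0.74 and 1.17.

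The genes through which KRAB zinc finger proteins act were examined as a list. Of 23 TRIM28 silencing partners tested, 8 were higher and 4 lower under Keniry2022 conditions in the pooled comparison, 12 in all, a share near the 51.5% of all features called in that comparison, with a median difference of 0.07. Trim28, the shared corepressor, stood at 8.96 under Keniry2022 conditions and 8.65 under Mulas2019 conditions, higher by 0.30 ± 0.05 (adjusted p = 0.0007, limma). Setdb1, the methyltransferase, differed by 0.07 ± 0.06 (adjusted p = 0.40, limma). Hdac2, a histone deacetylase, differed by 0.42 ± 0.04, the chromatin remodellers Smarcad1 and Hells by 0.44 ± 0.04 and 0.38 ± 0.04, and Morc3 by 0.27 ± 0.04. Trim28 and Setdb1 are given for their roles, after their values were seen. Of 4 zinc finger genes on other chromosomes known to bind retroelements, Zfp600 was higher by 0.48 ± 0.09 (adjusted p = 0.0020, limma), whereas Zfp809, Zfp932 and Gm15446 differed by 0.00 ± 0.08, 0.08 ± 0.11 and 0.02 ± 0.11.

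Markers of cell state also differed between the methods. Of 4 formative markers, Dnmt3b and Pou3f1 were higher under Keniry2022 conditions by 0.78 and 0.45 (adjusted p = 0.0001 and 0.034, limma), while Fgf5 and Otx2 did not pass the filter and Otx2 stood at -1.19 against -0.79 under Mulas2019 conditions. The summed level of the list, most of it from Dnmt3b, was 33.0 to 39.6 RPKM under Keniry2022 conditions, 20.0 to 24.8 under Mulas2019 conditions and 20.1 to 22.5 at p0. Of the 8 naive markers, Pou5f1, Zfp42 and Nanog were higher by 0.40, 0.30 and 0.18 and Klf4 differed by -0.40 (limma), with a summed level of 1409 to 1543, 1298 to 1322 and 1509 to 1749 RPKM in the same order of groups. Of 4 trophoblast markers only Eomes passed the filter, at a difference of -0.40 (adjusted p = 0.016, limma), and their summed level was 1.97 to 2.58, 2.32 to 3.51 and 1.94 RPKM. The calls of Nanog and Eomes were lost, in the same direction, after quantile normalisation and after correction for length and GC content. The part of these markers in the differences of the zinc finger genes was not tested.

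The 28 matched rows below the threshold were 15 on chromosome 7, 6 on chromosome 8, 5 on chromosome 13 and 2 on chromosome 17. They included Zfp455, Zfp458 and Zfp457 of the Zfp459 cluster. Zfp366 had 0 reads in every library, and 7 of the 28 were above 0 in at least 1 library. Just inside the threshold were Zfp423, Zfp773 and Zfp768, whose values at rank 5 from the top were 0.04, 0.09 and 0.12, and just outside were Zfp764, Zfp658 and Zfp791, with -0.01, -0.05 and -0.06.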

How the data were processed

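RNA-seq was performed on 10 libraries (5 groups of 2). The authors trimmed 75-base single-end reads with trim_galore, aligned them to mm10 (with HISAT2 per the study, TopHat2 2.0.12 per the submitters' processing notes) and quantified genes with SeqMonk. The deposited values, named log CPM, are log2 RPKM (reads scaled to exon length and library size), as the steps between low values showed, with 0 reads entered as 0.9 of a read. The sources used here do not state the annotation release, the strand setting or how reads with several matches were handled.

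The members and gene lists were chosen with earlier results of these data known. Genes named were those of the chromosome 13 cluster above the threshold, on each chromosome up to 5 called in each direction by largest difference and the 2 of highest mean, up to 5 called in each direction in p20 Mulas2019 against p0, up to 5 by smallest p of any called between passages or in Keniry2022 against p0 (none), 3 on either side of the detection threshold and up to 4 per list by smallest p. Genes outside this rule (those of the chromosome 7 cluster at 41.6 Mb, those called at p10, Zfp184 and where stated) were chosen after their values were seen.

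Tests used limma 3.58.1 in R 4.3.3 on the deposited values, with an intensity trend, two-sided, adjusted by the Benjamini-Hochberg method over all features with a value above 0 in at least 50% of the libraries of the fit. The pooled comparison used 8 libraries and method as its only term, as the study pooled passages, and the others used 1 model of 10 libraries and 5 groups. Whole reads were recovered from the deposited values for voom. All values of the 160 genes and 99.95% of all values came out within 0.02 of a whole read, the widest deviation being 0.261. Each exon length was searched for to make the values whole, so this closeness follows in part from that search. Of the 160 genes, 66 had a length found within 5% of the exon length in GENCODE. The fits were run on simulated data with independent libraries of equal spread. These lacked the shared lines and the wide p0 pair, so they could not show whether calls hold in this design. In the pooled fit the p10 and p20 libraries of a line counted as separate replicates, so its p-values measure a spread that mixes passage and line. In the model of 5 groups the spread came from the 2 libraries of each group, the wide p0 pair included. Neither fit measures spread beyond 2 lines. Alternatives were 2 other filters, quantile and median scaling, voom, correction for exon length and GC content, a replicate block, and leaving out each library; the crossed block, the model of 5 groups for the pooled comparison and the restriction to genes with unshared sequence were chosen after seeing the data.

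Replicate number was taken to mark the line, because the study split each line between methods. In p20 Keniry2022 it ran against the other groups in Y-linked reads, so the block as labelled may not follow the line there. Differences between replicates correlated at 0.17 to 0.63 between groups other than p20 Keniry2022, and at -0.70 to -0.12 between that group and the rest. Promoters came from RefSeq (GRCm38.p6). Searches covered both strands. The run GGGANNTGTAGT was built from the most widespread 6-letter word of the chromosome 13 cluster, with flanking letters kept where at least 85% of copies shared them. The cAMP response element was searched as TGACGTCA and by its core GACGTCA, which it contains. CACGTG (E-box), CCAAT (the CCAAT box) and CCGGAAG (ETS) were searched as well. No protein sequence or genome FASTA was used here.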

Additional observations from a re-analysis of the deposited data

Results flagged for a closer look

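Within the 4 libraries of a method, 4 of 116 sets of values for the named genes held a library far from the other 3, by Dixon's ratio at its 95% critical value, where chance flags about 5% of sets. Zfp958 was at 3.46 in p10 Mulas2019 replicate 2, against 3.74 to 3.80 in the others. Zfp493 in the same library was at 2.40, against 2.58 to 2.60, and Zfp598 there was at 5.04, against 4.96 in each of the others. Zfp748 was at 1.59 in p10 Keniry2022 replicate 1, against 1.25 to 1.29.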

How the results depend on the processing

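The pooled count of 68 genes was 43 with a filter at a value above 2, which tested 79 of the 160 genes, 26 in the model of 5 groups and 35 among the 84 genes with unshared sequence (20 higher, 15 lower). At p10 the count of 15 was 23 after quantile normalisation. At p20 the count of 4 was 8 after correction for length and GC content, 1 with the replicate block and 1 with the crossed block. Against p0, correction for length and GC content gave 1 for p10 Keniry2022 (1 also with the block) and 3 for p20 Keniry2022, and no filter gave 26 for p10 and 17 for p20 Mulas2019 in place of 43 and 34. The replicate block gave 63 in the pooled comparison, the crossed block 65, and beside length and GC correction the block took the p20 Keniry2022 count from 3 to 0. Within clusters the block as labelled took the higher calls at 21.0 Mb of chromosome 17 from 4 to 2, and the crossed block to 3. Both blocks took those at 71.9 Mb of chromosome 8 from 2 to 1 and those at 41.6 Mb of chromosome 7 at p20 from 2 to 0. Leaving out 1 library gave 53 to 68 in the pooled comparison, 0 to 66 at p10, 0 to 39 at p20, 0 to 0 between passages, 0 to 96 and 0 to 100 for p10 and p20 Keniry2022 against p0, and 1 to 103 and 0 to 94 for p10 and p20 Mulas2019 against p0. At p10, at p20 and against p0 the highest came without a p0 library, and the lowest against p0 for Mulas2019 came without a library of the group tested. The cause was not tested. Differences of Zfp958 (-0.0048) and Zfp330 (-0.059) reversed under correction for length and GC content, with and without the block. For named genes, 534 values under alternatives that kept all libraries kept their direction and call, 89 lost the call and 10 gained it, as did 463, 94 and 3 with 1 library left out. Depth limited genes such as Zfp626, with 19 reads in its lowest library.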

Other observations

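Letters CACGTG, the E-box bound by many basic helix-loop-helix factors, lay in 8 of 43 promoters of genes higher under Keniry2022 conditions (18.6%), in 2 of 19 of genes lower, in 6 of 79 of the rest and in 8.09% of all promoters. Among the promoters printed, that of Zfp459 held them. The letters CCGGAAG, the core bound by ETS factors, lay in 33 of the 141 promoters read (23.4%) and in 9.93% of all promoters. CCAAT lay in 51.1% of the promoters read and 41.1% of all. No test was made of these counts, since several of the genes are recent copies of each other and share sequence.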
